A study of Mus with 21 samples.

Results

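Fibroblast growth factor (FGF) genes of the mouse were followed by their transcripts in skin wounds that had been given FGF protein from outside. The set holds 10 genes, picked by symbol from the 18806 genes of the count files: the ligands Fgf1, Fgf2, Fgf7, Fgf10 and Fgf18, the receptors Fgfr1, Fgfr2, Fgfr3 and Fgfr4, and the carrier protein gene Fgfbp1. All 10 genes were found and all passed the filter on low counts that left 15811 genes for testing.

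The wounds were full-thickness punches through the back skin of 8-week-old female wild-type C57BL/6 mice, on both flanks, held open by a splint and collected on Day 4 as whole wound tissue. Each wound was filled with GelMA, a light-cured gelatin hydrogel, set to pH 6.4, 7.4 or 8.4 and loaded with aFGF (acidic FGF, the protein of Fgf1) or bFGF (basic FGF, the protein of Fgf2). The 6 hydrogel groups are named by pH and factor, as in 6.4/aFGF, and control wounds received neither hydrogel nor factor. No group had hydrogel without factor, so an effect of the gel and an effect of the factor cannot be told apart in any comparison with control. RNA-seq was made from 21 biological replicates, with 3 in each of 7 groups, by the labels. The study's methods give 3 mice with 2 wounds each per group for several collection days, and do not say whether wounds were pooled or whether the libraries of a group came from separate mice, so n counts libraries and the p-values measure the spread between them. Added protein carries no mRNA, so all values below are transcripts made in the wound.

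FGF ligands are secreted proteins that bind receptor tyrosine kinases on the cell surface together with heparan sulfate, and the receptors then signal through adaptor proteins to the Ras and MAP kinase cascade. In skin, Fgf7 and Fgf10 come from mesenchymal cells and act on the epithelial splice form of Fgfr2 in keratinocytes, while Fgf2 acts mainly on mesenchymal and endothelial cells and Fgf1 binds all of the receptors. The counts are per gene, so the epithelial and mesenchymal splice forms of a receptor were not separated here.

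Total counts were 34362558 to 37817833 per library (median 36771838). The skin label held: 14 of 14 keratinocyte markers and 11 of 11 fibroblast markers had a median above 1 CPM (counts scaled to library size, with TMM factors). Of 13 hair follicle markers, 8 hair keratins had a median under 0.1 CPM. Control replicate 2 stood apart from the other control libraries, with a summed neutrophil list of 8191 CPM against 789 and 1259, and an adipocyte list of 474.1 CPM against 3480 and 6128. Another 3 libraries held genes of other tissues. They were 7.4/aFGF replicate 3, with 259.8 CPM of a cartilage and bone list (median of all libraries 8.44), 8.4/bFGF replicate 2, with 501.8 CPM of an ovary and oviduct list (median 15.2), and 8.4/aFGF replicate 2, with a mean log2 CPM of 3.32 for a liver list, where the next library had 1.05. By summed CPM the liver list of 8.4/aFGF replicate 2 was not extreme, at 154.6 CPM in a range of 24.88 to 881.3 CPM over all libraries. Within its group, 7.4/bFGF replicate 3 stood apart too, with 311 CPM of skeletal muscle fibre genes against 16120 and 16890, and 4704 CPM of adipocyte genes against 796.1 and 609.5. In whole tissue, fewer cells of a type and less RNA per cell cannot be told apart.

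Among the 10 genes, transcripts of Fgfr1 were the most abundant. The order below is in FPKM, which corrects for gene length, as the mean over all libraries with its SD (n = 21). Fgfr1, the main receptor of mesenchymal cells, reached 51.96 ± 6.81 FPKM, which was more than 91.1% of the tested genes, and lay above every other member in 21 of 21 libraries. Fgfbp1, a secreted protein that releases FGFs from heparan sulfate, followed with 24.2 ± 6.56 FPKM. Fgf7, the keratinocyte growth factor, had 22.1 ± 6.21 FPKM and was the most abundant ligand. Fgfbp1 exceeded Fgf7 in 12 of 21 libraries, so the order of this pair was within their spread, and Fgf7 exceeded the next gene in 21 of 21.

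A step then separated these 3 genes from the rest. Fgfr3, a receptor of epithelial and cartilage cells, had 3.44 ± 1.00 FPKM. Fgfr2, the receptor for Fgf7 and Fgf10, had 3.40 ± 2.02 FPKM. Fgf18, a ligand known from cartilage and the hair cycle, had 2.69 ± 1.19 FPKM. Fgf2 had 2.63 ± 0.95 FPKM. Only neighbours in this order were compared, and Fgfr3 exceeded Fgfr2 in 14 libraries, Fgfr2 exceeded Fgf18 in 13 and Fgf18 exceeded Fgf2 in 11 of 21. These counts do not settle whether Fgfr3 and Fgf2 differed.

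The lowest members were Fgf10, Fgf1 and Fgfr4. Fgf10 had 1.82 ± 1.57 FPKM, below Fgf2 in 16 of 21 libraries and above Fgf1 in 19. Fgf1 had 0.50 ± 0.24 FPKM and Fgfr4, a receptor best known from liver and regenerating muscle, 0.47 ± 0.26 FPKM, and Fgf1 was the higher in 10 of 21 libraries. The place of Fgf1 rests on the gene length behind its FPKM, which was 19363 bases against a median of 3430 over tested genes. In CPM, with no length correction, Fgf1 had 9.52 ± 4.27 against 5.15 ± 1.89 for Fgf2. Thus the ligands whose proteins were loaded into the gels were among the less abundant of the 10 transcripts in FPKM.

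**Figure D1:**
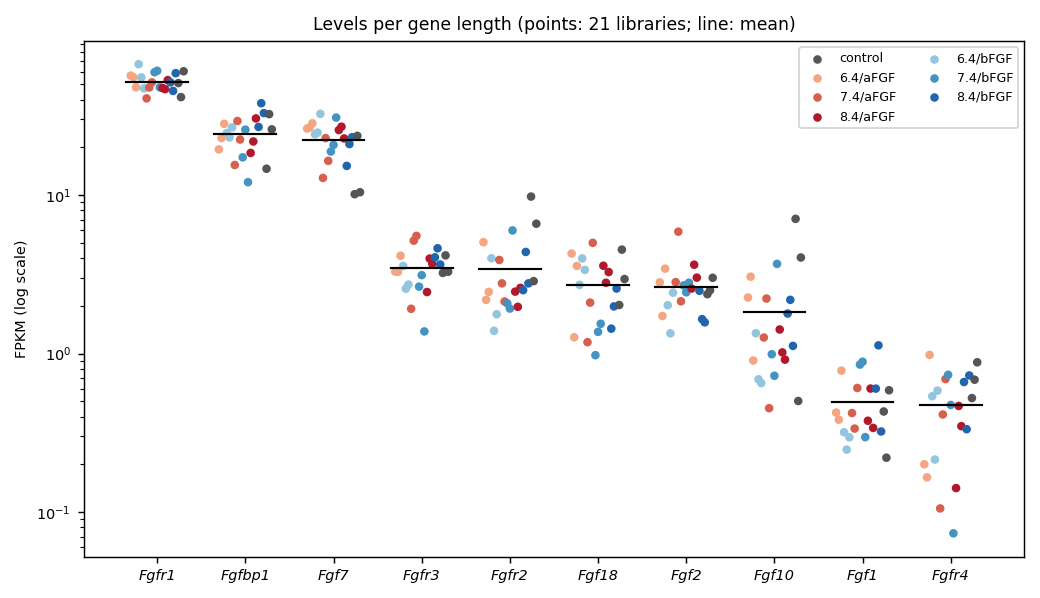
Level of each FGF ligand, receptor and carrier gene in FPKM (log axis), with 1 point per library (21) coloured by group and a line at the mean. Fgfr1 lies above all other members in every library, Fgfbp1 and Fgf7 overlap near 24.2 and 22.1 FPKM, and Fgf1 and Fgfr4 overlap at the bottom.

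Their spread over the libraries differed too. Fgfr1 varied least, from 204.9 to 326 CPM, with a coefficient of variation of 11.7%. Fgfbp1, Fgfr3 and Fgf7 followed with 25.3%, 27.8% and 30.6%. Fgf10 varied most, from 2.01 to 31.0 CPM, a 15.4-fold range and a coefficient of variation of 84.6%. Fgfr2 ranged 6.56-fold, from 7.65 to 50.2 CPM. Fgfr4 ranged 12.7-fold, from 0.27 to 3.36 CPM, but on 9 to 121 counts, so counting error is a larger part of its spread. The other 9 members had at least 57 counts in every library.

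The first question was whether any member differed among the 7 groups. In edgeR's quasi-likelihood F test over all genes, 0 of 10 members passed a Benjamini-Hochberg adjusted p of 0.05, where 0.114% of the tested genes did. At an unadjusted p under 0.05, 0 of 10 members passed against 19.3% of all genes. DESeq2 and limma, run on the same libraries, also called 0 members. In this and the later comparisons, the limma runs with a filter on mean FPKM left out Fgf1 and Fgfr4. Only limma without that filter covered these genes. The smallest adjusted p in this edgeR test was 0.289, for Fgf7. Without control replicate 2, Fgf7 was the 1 member called, and the share of all genes called in that setting is not given here.

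**Figure D2:**
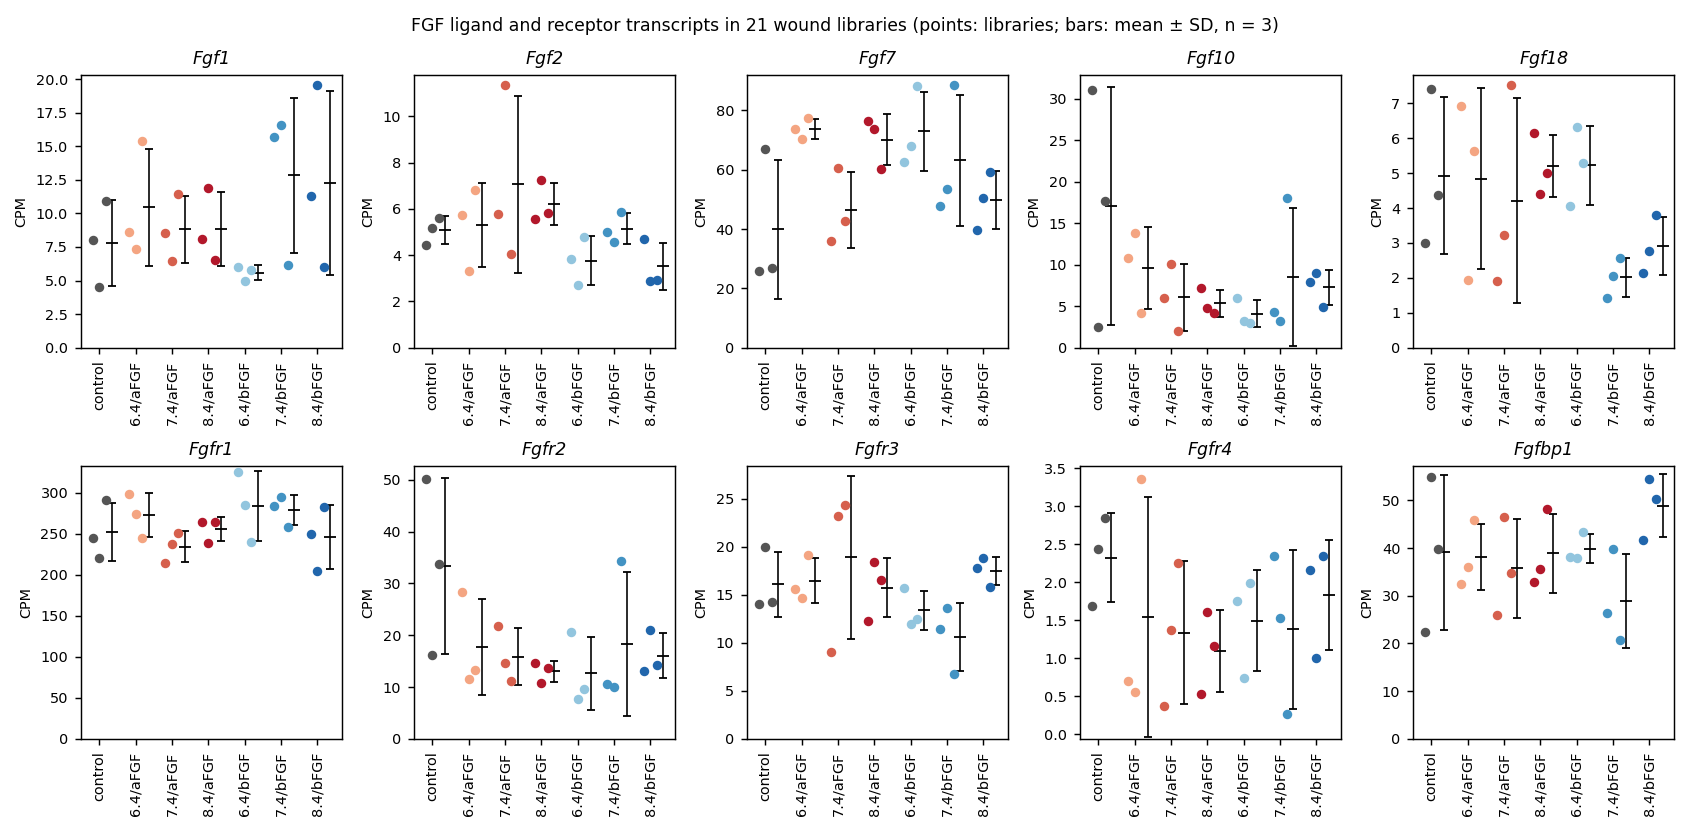
CPM of each of the 10 members by group, with 1 point per library and the group mean ± SD (n = 3). Control replicate 2 lies high for Fgf7 and low for Fgf10 and Fgfr2, unlike the other control libraries, and the bars of most groups overlap.

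The contrast of hydrogels with control addressed the response to factor and gel together. Fgf7 was higher and Fgf10 and Fgfr2 were lower in hydrogel wounds, by the estimates of edgeR, but none passed the adjusted threshold. The call rule asked for an adjusted p under 0.05 and a change of more than 0.58 on the log2 scale, up or down. It was met by 0 of 10 members, beside 0.00632% of the tested genes. At an unadjusted p under 0.05, edgeR had 3 of 10 members against 16.7% of all genes. DESeq2 and limma called 0 members. The median log2 fold change of the members was -0.06, against -0.02 for all genes tested.

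Fgf7 had 25.96, 66.9 and 26.7 CPM in control replicates 1, 2 and 3. In the 18 hydrogel libraries it had 35.9 CPM at the lowest, 61.7 at the median and 88.5 at the highest. Control replicates 1 and 3 thus lay below every hydrogel library, and replicate 2 lay within their range. The edgeR log2 fold change was 0.63 (SE 0.26, 95% interval 0.09 to 1.17, adjusted p = 0.236). By an exact permutation test of mean log2 CPM, two-sided, over 1330 arrangements of the libraries, the difference was 0.76 (p = 0.0143). Under that test 13.5% of all genes had a p under 0.05, and 2 of 10 members did.

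Fgf10, the ligand that shares its receptor with Fgf7, had 31.0, 2.43 and 17.7 CPM in control replicates 1, 2 and 3. The hydrogel libraries had 2.01 CPM at the lowest, 5.43 at the median and 18.1 at the highest. Control replicate 1 was above all hydrogel libraries, replicate 3 was near the top of their range and replicate 2 near its bottom. The edgeR log2 fold change was -1.38 (SE 0.53, 95% interval -2.49 to -0.27, adjusted p = 0.214). The exact permutation p was 0.158.

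Fgfr2 followed the pattern of Fgf10 rather than that of Fgf7. Its control replicates 1, 2 and 3 had 50.2, 16.2 and 33.8 CPM, and the hydrogel libraries had 7.65 CPM at the lowest, 13.6 at the median and 34.4 at the highest. Control replicate 1 exceeded all hydrogel libraries, and 1 hydrogel library, 7.4/bFGF replicate 3 with 34.4 CPM, exceeded control replicate 3. The edgeR log2 fold change was -1.11 (SE 0.36, 95% interval -1.88 to -0.35, adjusted p = 0.180), and the exact permutation p was 0.0113.

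These 3 estimates depended on which control library was left out. Without it, edgeR called Fgf7 (log2 fold change 1.23, adjusted p = 0.00822), Fgf10 (-1.90, adjusted p = 0.0248) and Fgfr2 (-1.44, adjusted p = 0.0295), beside 1189 called genes in all. Without control replicate 1 the same values were 0.39, -0.62 and -0.69, and none was called. In the exact permutation test, the p of Fgf7 was 0.105 without control replicate 1 and 0.10 without control replicate 3, and that of Fgfr2 was 0.110 without control replicate 1.

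Marker lists of other cell types moved with the same libraries. The neutrophil list (7 of 7 genes detected) summed to 789 to 8191 CPM in control and 3322 to 12880 CPM in hydrogel libraries. The adipocyte list (8 of 8 genes detected) summed to 474.1 to 6128 CPM in control and 381.3 to 4704 CPM in hydrogel libraries. With the adipocyte list as a covariate in edgeR, the log2 fold change of Fgf10 was -0.20 (adjusted p = 0.814) and that of Fgfr2 was -0.63 (adjusted p = 0.294). With the neutrophil list as a covariate, the edgeR log2 fold change of Fgf7 was 0.34 (adjusted p = 0.617). The neutrophil list left Fgf10 at -1.15 and Fgfr2 at -1.21, and the adipocyte list left Fgf7 at 0.61. These covariates were chosen after the values had been seen. With the skeletal muscle fibre list, a covariate set beside the main test, the edgeR log2 fold changes were 0.60 for Fgf7, -1.61 for Fgf10 and -1.23 for Fgfr2 (adjusted p of 0.202, 0.101 and 0.0886).

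The other 7 members gave small or wide differences between hydrogel and control wounds. Fgfr1 had the narrowest 95% interval, -0.17 to 0.28 around a log2 fold change of 0.05. Fgf2 differed by -0.02 (-0.57 to 0.53), Fgfbp1 by -0.04 (-0.51 to 0.43) and Fgfr3 by -0.09 (-0.58 to 0.41). For these 4 genes, as for Fgf1 and Fgf18 that follow, a change of the size estimated for Fgf10 lay outside the interval. Fgf1 differed by 0.28 (-0.46 to 1.01) and Fgf18 by -0.36 (-1.12 to 0.40). Fgfr4 had 2.32 ± 0.58 CPM in control (n = 3) and 1.45 ± 0.85 in hydrogel libraries (n = 18), a log2 fold change of -0.70 with an interval of -1.88 to 0.49, so a fall of that size could not be detected at this depth and spread.

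**Figure D3:**
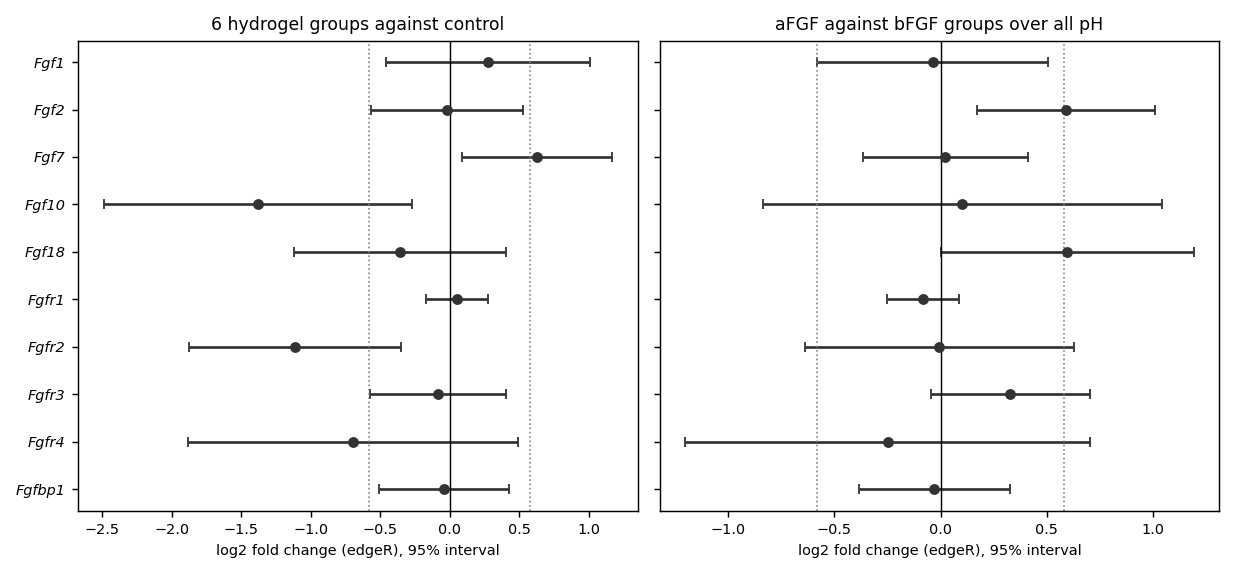
edgeR log2 fold change of each member with its 95% interval, for the 6 hydrogel groups against control (left) and aFGF against bFGF over all pH (right), with dotted lines at the fold threshold of 0.58. The intervals of Fgf7, Fgf10 and Fgfr2 (left) and of Fgf2 (right) lie clear of 0, and no member passed the adjusted threshold.

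Next, wounds with aFGF were compared with wounds with bFGF over all pH values, 9 libraries each. Fgf2, the gene of bFGF itself, was the member with the smallest p. edgeR called 0 of 10 members, beside 3.2% of the tested genes, and 1 of 10 had an unadjusted p under 0.05 against 28% of all genes. DESeq2 with default settings called 1 member, Fgf2, and limma called 0. The 3.2% is the share for edgeR with all libraries, and the shares of all genes called in other settings are not given here. The libraries of the hydrogel groups also served in the contrast with control, so these comparisons are not independent.

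Fgf2 had 3.32 CPM at the lowest, 5.76 at the median and 11.4 at the highest of the aFGF libraries. In the bFGF libraries it had 2.69, 4.58 and 5.86 CPM. The ranges overlapped, and 7.4/aFGF replicate 2 was the highest of all libraries. The edgeR log2 fold change was 0.59 (SE 0.20, 95% interval 0.17 to 1.01, adjusted p = 0.0643), and DESeq2 gave 0.59 (adjusted p = 0.0297). edgeR called it without 6.4/aFGF replicate 2 (adjusted p = 0.0357), without 7.4/aFGF replicate 3 (0.0238) or without 8.4/bFGF replicate 1 (0.0459). Without 7.4/aFGF replicate 2, the log2 fold change was 0.42, and the adjusted p over all libraries left out in turn reached 0.134. In control wounds, Fgf2 had 4.43, 5.18 and 5.62 CPM, between the extremes of both factors.

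Within single pH values, the Fgf2 difference had the same sign. At pH 6.4 the means were 5.30 ± 1.80 CPM with aFGF and 3.76 ± 1.05 with bFGF. At pH 7.4 they were 7.06 ± 3.82 and 5.14 ± 0.66, and at pH 8.4 they were 6.21 ± 0.89 and 3.51 ± 1.03 (n = 3 each). At pH 8.4 the libraries had 5.57, 7.23 and 5.83 CPM against 4.70, 2.88 and 2.94, and edgeR gave a log2 fold change of 0.82 there (adjusted p = 0.197). The macrophage list (8 of 8 genes detected) moved with it, at 6434 to 10970 CPM in aFGF and 4665 to 8557 CPM in bFGF libraries, and its part in the Fgf2 difference was not tested. Nudt6, which overlaps Fgf2 on the opposite strand in RefSeq, had 6.38 CPM with aFGF and 6.00 with bFGF (log2 fold change 0.09, 95% interval -0.23 to 0.42). The strand setting of the counting is not given in the sources used here, so reads of this pair may be shared. In RefSeq, Fgf7 overlaps Fam227b and Fgf1 overlaps Arhgap26 and Gm5820, so the same limit holds for Fgf7 and Fgf1. Fgfr1 overlaps Gm31288 and Gm16159, and Fgf2 also overlaps Fgf2os. These neighbours of Fgfr1 and Fgf2os are not in the count files, and whether their reads were counted to Fgfr1 or Fgf2 was not tested.

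Fgf1, the gene of aFGF, had 9.37 ± 2.98 CPM in aFGF and 10.2 ± 5.69 CPM in bFGF libraries (n = 9 each), a log2 fold change of -0.04 with a 95% interval of -0.58 to 0.51. The estimates at single pH values had different signs, at 0.91 for pH 6.4 (8.63, 7.32 and 15.4 against 5.99, 4.94 and 5.82 CPM), -0.54 for pH 7.4 and -0.48 for pH 8.4. The edgeR adjusted p was 0.688, 0.583 and 0.570, in that order. Fgf18 had 4.75 ± 2.05 CPM with aFGF and 3.38 ± 1.63 with bFGF (log2 fold change 0.60, interval 0.00 to 1.19, edgeR adjusted p = 0.178). Without 7.4/aFGF replicate 3, the library with cartilage and bone genes, that log2 fold change was 0.36. The 8 remaining members apart from Fgf2 and Fgf18 had log2 fold changes from -0.25 (Fgfr4) to 0.33 (Fgfr3), and the interval of Fgfr1 was the narrowest, at -0.25 to 0.09.

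The pH pairs asked whether the wound pH moved FGF transcripts at a fixed factor. With aFGF, pH 6.4 against 7.4 gave 0 of 10 members called by edgeR, beside 0% of the tested genes, and 0 of 10 at an unadjusted p under 0.05 against 7.25% of all genes. Fgf7 was nearest, with 73.6, 70.4 and 77.3 CPM in 6.4/aFGF against 35.9, 60.7 and 42.7 CPM in 7.4/aFGF. The log2 fold change was 0.67 (SE 0.32, 95% interval -0.01 to 1.34, edgeR adjusted p = 0.680). Fgf7 at pH 8.4 with aFGF had 76.4, 73.6 and 60.3 CPM, so it overlapped both. The pH 8.4 against 7.4 pair with aFGF gave 0 of 10 called (0% of genes) and 0 of 10 at an unadjusted p under 0.05 (4.88% of genes).

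With bFGF, edgeR again called 0 of 10 members for pH 6.4 against 7.4, beside 0% of the tested genes, while 2 of 10 had an unadjusted p under 0.05 against 7.82% of all genes. Fgf18 had 4.07, 6.34 and 5.29 CPM in 6.4/bFGF against 1.44, 2.05 and 2.56 CPM in 7.4/bFGF (log2 fold change 1.38, SE 0.50, edgeR adjusted p = 0.624). Fgf1 had 5.99, 4.94 and 5.82 CPM in 6.4/bFGF against 15.7, 16.6 and 6.19 CPM in 7.4/bFGF (log2 fold change -1.20, SE 0.45, edgeR adjusted p = 0.624). The skeletal muscle fibre list (12 of 12 genes detected) moved with the Fgf1 values, at 3107, 2068 and 3143 CPM in 6.4/bFGF against 16120, 16890 and 311 CPM in 7.4/bFGF. With that list as a covariate in edgeR, the log2 fold change of Fgf1 was -0.91.

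For pH 8.4 against 7.4 with bFGF, edgeR called 0 of 10 members (0% of genes), and 2 of 10 had an unadjusted p under 0.05 (4.07% of genes). They were the epithelial genes Fgfr3 and Fgfbp1. Fgfr3 had 17.8, 18.8 and 15.8 CPM in 8.4/bFGF against 11.4, 13.7 and 6.72 CPM in 7.4/bFGF. Fgfbp1 had 41.7, 54.5 and 50.4 CPM against 26.3, 39.9 and 20.7 CPM. The edgeR log2 fold changes of Fgfr3 and Fgfbp1 were 0.72 (SE 0.31) and 0.75 (SE 0.29), both with an adjusted p of 0.999. Without 7.4/bFGF replicate 3, which had the lowest value of both, they were 0.48 and 0.56. The keratinocyte list summed to 6347 to 8963 CPM in 8.4/bFGF and 3903 to 6415 CPM in 7.4/bFGF, and with this list as a covariate the edgeR log2 fold changes were 0.31 for Fgfr3 and 0.36 for Fgfbp1.

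Factor pairs at a single pH gave the same picture. At pH 6.4, edgeR called 0 of 10 members (0% of genes), and 0 of 10 had an unadjusted p under 0.05 (7.15% of genes). At pH 7.4, 0 of 10 were called (0.0759% of genes) and 2 of 10 had an unadjusted p under 0.05 (14.8% of genes). These were Fgf18, with 1.91, 3.22 and 7.52 CPM with aFGF against the 7.4/bFGF values above (log2 fold change 1.07, SE 0.50), and Fgfr3, with 9.10, 23.2 and 24.4 CPM with aFGF (log2 fold change 0.83, SE 0.31, edgeR adjusted p = 0.236). The highest values of both came from 7.4/aFGF replicate 3, the library with the cartilage and bone genes, and without that replicate the Fgf18 log2 fold change was 0.35. For Fgfr3, 7.4/aFGF replicate 2 was nearly as high. Over the libraries left out in turn, the Fgfr3 log2 fold change was lowest without 7.4/bFGF replicate 3, at 0.59, and reached 1.17 without 7.4/aFGF replicate 1. At pH 8.4, 0 of 10 were called (0.0632% of genes), and 1 of 10, Fgf2, had an unadjusted p under 0.05 (20.1% of genes).

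The interaction, which asks whether the step from pH 7.4 to 6.4 differed between the factors, gave 0 of 10 members called by edgeR (0% of genes). At an unadjusted p under 0.05 there was 1 of 10 members, Fgf1, against 5.14% of all genes, with a difference of log2 fold changes of 1.45 (95% interval 0.11 to 2.79, adjusted p = 0.880). In these single-pH pairs, in the pH pairs and in the interaction, DESeq2 and limma called 0 members as well.

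Since several members move with lists of cell type markers, each member's log2 CPM was set against the mean log2 CPM of 14 marker lists over the 21 libraries. These 140 relations were added after the levels had been seen, and 4 of them had a Benjamini-Hochberg adjusted p under 0.05 for both Pearson's r and Spearman's rho, from permutation tests with 100000 resamples. They were Fgf10 and Fgfr2 with adipocyte genes, Fgfr3 with keratinocyte genes and Fgfr4 with muscle progenitor genes.

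Fgf10 followed the adipocyte list most closely, with r = 0.91 (permutation p = 1.0e-05, the smallest the resamples can give, adjusted p = 0.0014) and rho = 0.92 (adjusted p = 0.0014). Without the 2 libraries farthest from the list's median r was 0.91, and within groups, as deviations from the group means, it was also 0.91. It was 0.86 among the aFGF libraries and 0.93 among the bFGF libraries. Fgfr2 with the same list gave r = 0.77 (permutation p = 6.0e-05, adjusted p = 0.00315) and rho = 0.70 (adjusted p = 0.0397), with r = 0.65 without the 2 farthest libraries and 0.79 within groups. Among the aFGF libraries alone, r of Fgfr2 was 0.49, against 0.82 among the bFGF libraries.

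Fgfr3 rose and fell with the keratinocyte list at r = 0.78 (permutation p = 7.0e-05, adjusted p = 0.00315) and rho = 0.68 (adjusted p = 0.0397). Without the 2 farthest libraries r was 0.57, within groups it was 0.72, and without the 3 libraries holding genes of other tissues it was 0.91. Fgfbp1 gave r = 0.74 with the same list (permutation p = 9.0e-05, adjusted p = 0.00315) and rho = 0.64 (adjusted p = 0.0512), with r = 0.63 without the 2 farthest libraries and 0.68 within groups. Fgfr4, at its low level, gave r = 0.70 with the muscle progenitor and regenerating fibre list (permutation p = 0.00036, adjusted p = 0.0101) and rho = 0.66 (adjusted p = 0.0434), with 0.58 without the 2 farthest libraries and 0.82 within groups. That list summed to 69.8 to 125.4 CPM in control and 7.34 to 106.9 CPM in hydrogel libraries.

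**Figure D4:**
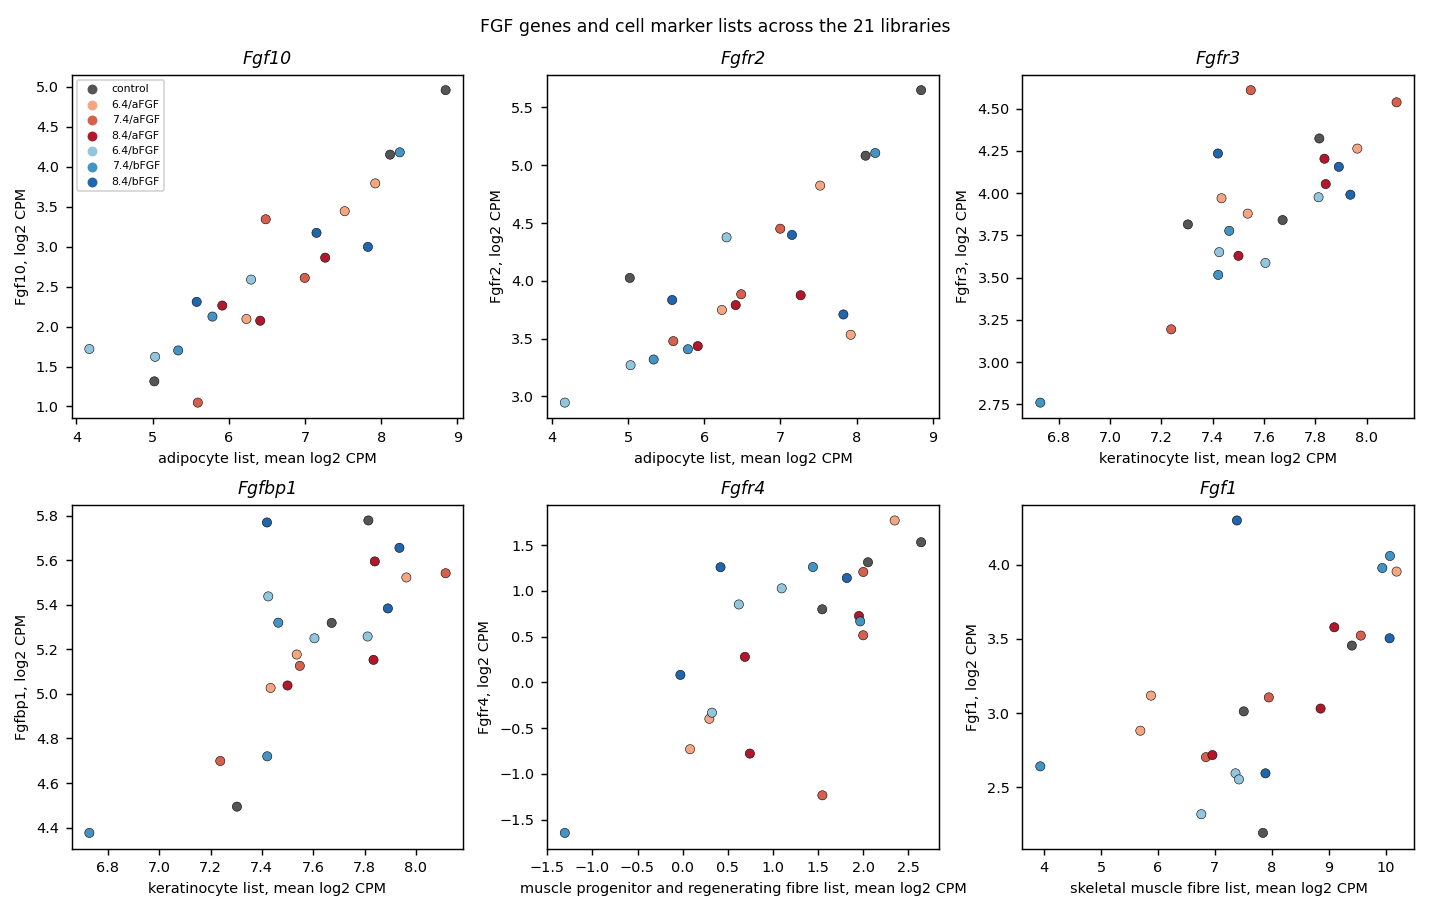
Member log2 CPM (vertical axis) against the mean log2 CPM of a marker list (horizontal axis), with 1 point per library coloured by group, for 6 members. Fgf10 and Fgfr2 rise with the adipocyte list (r of 0.91 and 0.77) Fgfr3 and Fgfbp1 rise with the keratinocyte list (r of 0.78 and 0.74), and Fgfr4 and Fgf1 rise with the muscle lists (r of 0.70 and 0.62).

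The remaining members had relations that passed the adjustment for r alone. Fgf1 gave r = 0.62 with the skeletal muscle fibre list (permutation adjusted p = 0.0335) and rho = 0.61 (adjusted p = 0.0608), and that list ranged from 311 to 19180 CPM over the libraries. The highest Fgf1 value, 19.6 CPM, came from 8.4/bFGF replicate 2, the library with ovary and oviduct genes. Fgf2 gave r = 0.68 with the macrophage list (adjusted p = 0.0164), 0.63 without the 2 farthest libraries and 0.46 within groups. Fgfr1 gave r = 0.65 with the fibroblast list (adjusted p = 0.0225), 0.46 without the 2 farthest libraries and 0.71 within groups. Fgf7 gave r = 0.66 with the neutrophil list (adjusted p = 0.0225), but without the 2 farthest libraries, control replicates 1 and 3, r was 0.26, so the pooled relation rests on those libraries. Its r was 0.62 within groups, where the control libraries still enter, 0.60 among the bFGF libraries and -0.12 among the aFGF libraries. Fgf7 also gave r = -0.65 with the hair follicle list (adjusted p = 0.0225), which was -0.25 without the same control libraries. Fgf18 had no relation that passed.

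**Figure D5:**
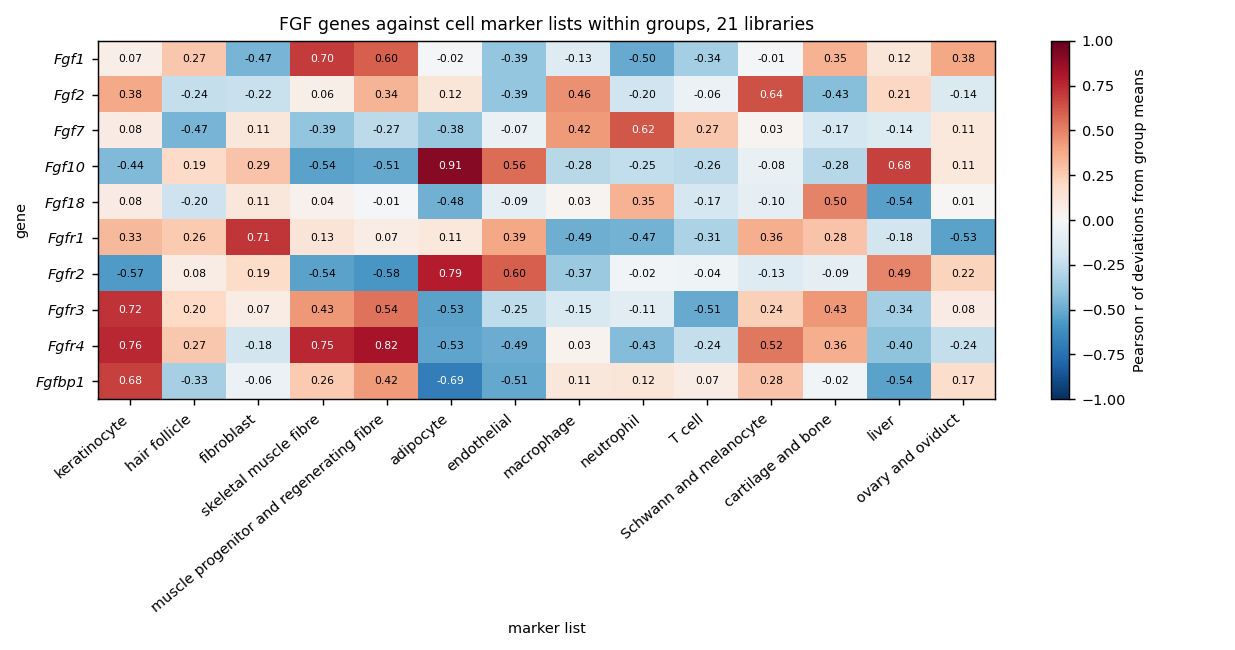
Pearson's r within groups (deviations from group means, 21 libraries) of each member (rows) with each of 14 marker lists (columns), from blue for negative to red for positive. The darkest cells are Fgf10 with the adipocyte list (0.91) and Fgfr4 with the muscle progenitor list (0.82), and Fgf18 lies between -0.54 and 0.50.

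Members also varied with one another, which is given as a description with no test. Fgf10 and Fgfr2, ligand and receptor, had r = 0.78 over the 21 libraries and 0.75 within groups. Fgfr3 and Fgfbp1 had 0.69 and 0.67, and Fgfr3 and Fgfr4 had 0.63 and 0.76. Fgf7 and Fgf10, which share a receptor, had r = -0.34 and -0.27 within groups, and Fgf7 and Fgfr2 had -0.43 and -0.15.

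The genes most like each member over the 21 libraries, among 11595 or 11596 genes with a median of at least 5 CPM, were found by Pearson's r of log2 CPM, again as a description. The closest to Fgf10 were 4931406C07Rik (0.94), Csad (0.94) and Slc1a3 (0.94). Fgfr2 was nearest to Ano1 (0.91), a calcium-activated chloride channel, Ptn (0.89), a secreted growth factor, and Slc12a2 (0.89), a chloride cotransporter. Fgfr3 was nearest to Esrp2 (0.92), an epithelial splicing regulator, Dsc3 (0.88), a desmosome cadherin, and Pard6g (0.87). For Fgfbp1 they were Ckmt1 (0.93), Abhd12b (0.84) and Pdzk1ip1 (0.84). Fgf7 was nearest to Lrrc61 (0.86), Ssr3 (0.85) and Sprr2h (0.85), a cornified envelope gene, and Fgf2 to Dab2 (0.82), an endocytic adaptor, Rrp1 (0.81) and Sphk2 (0.80). Fgf1 was nearest to Ldhb (0.88), a lactate dehydrogenase, Spock2 (0.87) and St3gal5 (0.81). The rest gave Wnt11 (0.87), Manf (0.80) and Pole4 (0.79) for Fgf18. For Fgfr1 they were Loxl1 (0.82), an elastin crosslinking enzyme, Mospd3 (0.78) and Zdhhc8 (0.77). For Fgfr4 they were Rassf7 (0.84), Ppl (0.82) and Tuft1 (0.81).

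Other genes of the pathway were counted from lists drawn up by role, with earlier results of these data known. Of 17 further FGF genes, 16 were analysed here and 8 passed the filter. Fgf23, a hormone of phosphate balance made mainly in bone, was the highest at 4.31 FPKM, above Fgf18 and Fgf2, and ranged from 0.69 CPM in control replicate 1 to 24.2 CPM in 6.4/aFGF replicate 3, and its control values of 0.69, 23.2 and 1.63 CPM were also split by replicate 2. Fgf11, an intracellular FGF that is not secreted, had 1.84 FPKM. Fgf8 and Fgf17 had at most 1 and 2 counts in any library, under the floor of 3 counts.

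By level, the lists were led by Sdc1, syndecan-1, at 96.0 FPKM among the coreceptors, by Ext1, a heparan sulfate polymerase, at 47.2 FPKM among the enzymes, by Mapk3, the kinase ERK1, at 80.8 FPKM among the adaptors and kinases, and by Egr1, an immediate early gene, at 44.7 FPKM among the feedback genes and targets. Fgfr1, with 51.96 FPKM, was thus within the range of these leading genes, while the other receptors were well below it.

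For hydrogel against control, edgeR called 0 genes in each list, beside 0.00632% of all genes. An unadjusted p under 0.05, which 16.7% of all genes had, was found in 2 of 8 other FGF genes, both lower, 1 of 11 coreceptors, lower, 4 of 12 heparan sulfate enzymes, of which 3 were higher, 1 of 19 adaptors and Ras to MAP kinase genes, higher, and 4 of 18 feedback inhibitors and targets, of which 3 were lower. In the last list, 12 of 18 genes had a log2 fold change above 0. The 4 genes are named after their values were seen. Spry3, a Sprouty inhibitor, had 2.25 CPM in hydrogel and 1.00 in control libraries (log2 fold change 1.11), Ccnd1, cyclin D1, had 65.2 and 86.9 CPM (log2 fold change -0.42), Dusp4, a MAP kinase phosphatase, had 7.47 and 13.7 CPM (log2 fold change -0.90), and Etv5, an ETS factor induced by FGF signalling, had 26.03 and 33.7 CPM (log2 fold change -0.38). The median log2 fold change of that list was 0.07, against -0.02 for all genes.

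For aFGF against bFGF, edgeR called 2 genes of these lists, beside the 3.2% of all genes given above. Fgf11 was lower with aFGF, at 5.22, 3.29 and 2.80 CPM in 6.4/aFGF, 1.25, 4.18 and 4.27 CPM in 7.4/aFGF and 3.52, 3.14 and 4.88 CPM in 8.4/aFGF, against 4.94 CPM at the lowest, 6.00 at the median and 8.0 at the highest of the bFGF libraries. The log2 fold change was -0.75 (SE 0.20, edgeR adjusted p = 0.0288), and control wounds had 7.70 ± 1.15 CPM (n = 3). Sdc4, the heparan sulfate coreceptor syndecan-4, was higher with aFGF, at 192.1 CPM at the lowest, 341.6 at the median and 588.9 at the highest, against 108.7, 172.1 and 268.9 CPM with bFGF. Its log2 fold change was 1.11 (SE 0.28, edgeR adjusted p = 0.0241), and the control libraries had 122, 413.8 and 106.8 CPM. Without the 3 libraries that held genes of other tissues, neither gene was called by edgeR, at log2 fold changes of -0.76 for Fgf11 (adjusted p = 0.0644) and 1.12 for Sdc4 (adjusted p = 0.0555), about the size they had with all libraries. Fgf11 also lost the call without any 1 of 6.4/aFGF replicate 3, 8.4/aFGF replicate 1 or 2, 7.4/bFGF replicate 2 or 8.4/bFGF replicate 2 (adjusted p of 0.0533 to 0.0614). Sdc4 lost it without any 1 of 6.4/aFGF replicate 3, 7.4/aFGF replicate 1, 8.4/aFGF replicate 1 or 6.4/bFGF replicate 1 (adjusted p of 0.0511 to 0.0550).

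The lists had unadjusted p under 0.05 in 1 of 8 other FGF genes, 3 of 11 coreceptors, 4 of 12 heparan sulfate enzymes, 9 of 19 adaptors and Ras to MAP kinase genes and 4 of 18 feedback genes and targets, beside the 28% of all genes. In the adaptor list, whose genes are named here after their values were seen, 6 of the 9 were higher with aFGF, among them Gab1, a docking protein of receptor tyrosine kinases (64.3 and 49.6 CPM, log2 fold change 0.37, edgeR adjusted p = 0.0268, under the fold threshold). The 3 lower ones were Shc1, Plcg1 and Mapk3. The median log2 fold change of the list was 0.11, against -0.002 for all genes.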

How the data were processed

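For each library the authors deposited unnormalized read counts by gene and FPKM values. The FPKM were the counts over the library total and over 1 length a gene, which was checked on 14938 genes. Libraries were made with a stranded mRNA kit. The submitters' processing notes name the build GRCm39, while the aligner, counting tool, annotation and strand setting are not given in the sources used here. A RefSeq table of assembly GRCm38.p6 served only to find overlapping neighbours.

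Tests were run in R 4.3.3. edgeR 4.0.16 was used with its default filter by group, TMM factors (0.898 to 1.11), 1 mean per group over 21 libraries and the quasi-likelihood test, and a prior count of 2 entered log2 CPM. P-values were adjusted by Benjamini-Hochberg over 15811 genes, and calls needed 0.05 and a log2 change past 0.58 (the F test over 7 groups, 0.05 alone). Control was also compared with hydrogel libraries by an exact permutation test. FPKM served for levels between genes. Alternatives were DESeq2 1.42.0, limma 3.58.1 on log2 FPKM, other normalizations and filters, the replicate number as a block, each library left out, and marker lists as covariates. The adipocyte, keratinocyte and neutrophil covariates and the relations with marker lists were added after seeing the data. The scripts were tested on simulated counts.

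The members and lists were chosen with earlier results of these data known. The genes named are the members, the called genes and the most abundant gene of each pathway list. Nudt6, the other genes that overlap Fgf1, Fgf2, Fgf7 or Fgfr1 and the 3 genes most like each member are also named. Genes outside this rule are said to be so. Libraries of a group differed by more than sampling noise, and errors are given as SDs over libraries.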

Additional observations from a re-analysis of the deposited data

How the results depend on the processing

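Of 394 recounts of the members called under alternative settings, 388 stayed on the same side as the values in the report. The others were 1 for any difference among the groups without control replicate 2 (range 0 to 1 over the libraries left out in turn), 3 for hydrogel against control without the same library (range 0 to 3), and 1, Fgf2, for aFGF against bFGF, by DESeq2 with default settings and without 6.4/aFGF replicate 2, 7.4/aFGF replicate 3 or 8.4/bFGF replicate 1 (range 0 to 1). These are counts of members alone, without the share of all genes called in the same setting. In the exact permutation test of control against hydrogel libraries, 2 members had a p under 0.05 with all libraries, and 0 to 3 when 1 library was left out: 0 without control replicate 1, 1 without control replicate 3 and 3 without control replicate 2. The cause was not tested. Signs were followed only for selected differences, and none of these turned. With all libraries these had an unadjusted p under 0.05, except Fgf18 for aFGF against bFGF and Fgfr4 for hydrogel against control. The signs of the other member estimates, among them those near 0, were not followed. Fgf11 lost its call in 8 and Sdc4 in 5 of 36 alternatives, with adjusted p up to 0.0644 and 0.0555 in edgeR.

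Replicate numbers did not pair the libraries: deviations of 63 same-number pairs correlated at -0.638 to 0.423 (median 0.00889), and 5 of 21 libraries were closest to one of their own number. With the replicate number as a block, 0 members were called in every comparison. Depth limits Fgfr4 most, at 9 to 121 counts.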
